A study of Mus musculus with 14 samples.

Results

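Id2, Id3 and the E protein genes Tcf3, Tcf4 and Tcf12 held 145 of the 240778 windows in which ATAC-seq reads were counted. A window is a short stretch around the summit of an accessible site, as given in the deposited table in GRCm38 coordinates. Each protein-coding gene entered with 1 start site, the first base of its RefSeq record on its strand. A window was assigned to 1 of the 5 genes when that gene's start site was the nearest of these to the window's centre and lay within 100 kb. This rule uses position and no measured value. Of all windows, 201041 had a start site of any protein-coding gene within 100 kb. Id2 had 44 windows, Id3 26, Tcf3 7, Tcf4 24 and Tcf12 44, and neighbouring windows overlapped, so that the 145 windows formed 99 separate regions.

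E proteins are basic helix-loop-helix transcription factors that bind DNA as dimers at E boxes, short sites with the letters CANNTG. Tcf3 encodes E2A, Tcf4 encodes E2-2 and Tcf12 encodes HEB. Id proteins lack the DNA-binding part, pair with E proteins and so keep them off DNA. In lymphocytes the balance between them is known to set commitment to the T cell lineage, checkpoints in the thymus and the state of effector and regulatory T cells, in which Id2 and Id3 are both known to restrain E protein activity.

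ATAC-seq, which marks open chromatin with a transposase that adds adapters, was run on regulatory T (Treg) cells from spleen and lymph nodes. The comparison asks what the loss of the Treg lineage factor Foxp3 does to chromatin in Treg cells that have already formed. Each mouse carried the Foxp3-AID allele, from which Foxp3 is made with a degron tag together with a ZsGreen reporter and Cre recombinase, and each received 5-ph-IAA for 3 or 7 days. The study describes ATAC-seq on day 7 of cells sorted on ZsGreen from heterozygous Foxp3-AID/WT mice. Such mice also hold Treg cells with untagged Foxp3, which the drug leaves unaffected. R26TIR1(F74G) mice in addition encode a plant E3 ligase subunit, mutated to bind 5-ph-IAA and placed behind a stop cassette that Cre removes, so that tagged Foxp3 is degraded in the cells that use the Foxp3 locus. R26WT mice carry the tagged Foxp3 and received the drug without the ligase. The groups were 4 R26WT and 4 R26TIR1(F74G) mice on day 3 and 3 of each genotype on day 7, 14 libraries in all, and no mouse was in more than 1 group. The labels give neither the age of these mice nor whether the cells were resting or activated. The study describes ATAC-seq of both resting and activated Treg cells, so that mice of a group may differ in this, and its part in the results was not tested. Degradation acts on the protein, and the counts hold no measure of it.

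Counts in windows ranged from 5653289 to 20184487 per library, with the lowest totals in R26TIR1(F74G) day 3 replicate 1 and R26WT day 7 replicate 3 (6348754). The share of counts in the 47011 windows within 1 kb of a protein-coding start site was 42.4% to 46.6%, and its mean was 45.6% ± 0.925 (SD, n = 4) in R26WT and 44.1% ± 1.46 (SD, n = 4) in R26TIR1(F74G) mice on day 3. The order was the other way on day 7, with 44.6% ± 1.90 (SD, n = 3) in R26WT and 45.6% ± 0.586 (SD, n = 3) in R26TIR1(F74G) mice. Of 6 Treg markers, Il2ra, Ctla4, Ikzf2 and Ikzf4 had windows within 1 kb of the start site, whereas the nearest windows of Foxp3 and Tnfrsf18 lay 4338 and 4002 bp away. Summed over the list, Treg markers were at 108.1 to 145.3 CPM and 4 T cell markers at 84.2 to 116.97 CPM. Among myeloid markers Csf1r, Lyz2 and Cd68 had no such window and the sum of 5 was 10.2 to 14.5 CPM. Cd8a and Cd8b1 summed to 19.6 to 31.7 CPM, Eomes alone of 5 markers of NK cells and innate lymphoid cells gave 17.3 to 25.5 CPM, and Irf8 alone of 4 markers of plasmacytoid dendritic cells gave 27.3 to 36.9 CPM. The group ranges of each of these 6 lists overlapped between genotypes on each day. The part of other cells in the results below was not tested, and fewer cells with an open site cannot be told apart from a site that is less open in each cell.

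The DNA before the start of 3 of the genes is shown because the window nearest to the start site covers part of it. The accessibility values given below belong to that part together with window bases past the start, which are not shown. Sequences are from RefSeq promoters of GRCm38.p6, read in the direction of the gene and ending at the base before its start, and capitals mark the bases inside the counted window. The stretches lie at chr12:25096093-25096342 on the minus strand for Id2, chr4:136143572-136143821 on the plus strand for Id3 and chr9:72111894-72112069 on the minus strand for Tcf12.
Id2: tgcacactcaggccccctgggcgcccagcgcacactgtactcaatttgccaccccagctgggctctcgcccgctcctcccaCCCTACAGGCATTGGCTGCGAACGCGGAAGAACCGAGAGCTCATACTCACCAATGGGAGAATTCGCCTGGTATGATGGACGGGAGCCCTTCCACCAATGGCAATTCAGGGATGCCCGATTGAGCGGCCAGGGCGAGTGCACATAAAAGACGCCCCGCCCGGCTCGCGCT
Id3: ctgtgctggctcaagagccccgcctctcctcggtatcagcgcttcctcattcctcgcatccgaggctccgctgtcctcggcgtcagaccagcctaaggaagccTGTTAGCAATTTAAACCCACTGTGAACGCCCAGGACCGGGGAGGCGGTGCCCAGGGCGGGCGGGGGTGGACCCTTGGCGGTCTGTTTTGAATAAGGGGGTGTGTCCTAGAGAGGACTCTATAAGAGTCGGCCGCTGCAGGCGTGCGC
Tcf12: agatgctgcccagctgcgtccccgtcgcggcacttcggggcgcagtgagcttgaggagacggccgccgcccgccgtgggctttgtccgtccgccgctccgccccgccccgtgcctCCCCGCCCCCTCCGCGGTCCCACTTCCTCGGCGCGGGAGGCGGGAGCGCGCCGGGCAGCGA

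The Id2 window covered the last 169 of these 250 bases, the Id3 window the last 147 of 250 and the Tcf12 window the last 61 of 176. GC content was 62.8% before Id2, 62.8% before Id3 and 78.4% before Tcf12. An E box (CANNTG on both strands, which read alike) was found once before Id2, as CAGCTG whose first base lies 196 bases before the start, and once before Tcf12, as CAGCTG 166 bases before it, and both lay outside the counted window. None was found before Id3. In the RefSeq promoter of Tcf3, whose start lies 341 bp inside the gene, CACTTG was found once. CACCTG, an E box that E proteins are known to prefer and a subset of CANNTG, and the forkhead motif TGTTTAC were found in none of the 6 promoters that the table holds for Id2, Id3, Tcf3 and Tcf12, 3 of them for Tcf12. For comparison, of 32851 promoters of 300 bases in the RefSeq table, 72.3% held CANNTG, 20.2% CACCTG and 3.65% TGTTTAC. A match or its absence is a description of these letters.

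The windows that the rule assigned to the 5 genes differed in number and position. Both also depend on how near the start sites of neighbouring genes lie and on the limit of 100 kb. The part of these in the differences was not tested. Genes with any window had a median of 8 windows, and the 44 of Id2 and of Tcf12 stood at percentile 95.9 among 15877 such genes. Id2 (chr12:25093799-25096092, minus strand) is a short gene, and 35 of its 44 windows lay upstream of the start site, 31 of them beyond 20 kb and as far as 94598 bp. Id3 (chr4:136143822-136145392, plus strand) is similarly compact, with 21 of 26 windows upstream, up to 43242 bp away, and 3 past the end of the gene. Tcf12 (chr9:71844252-72111893, minus strand) and Tcf4 (chr18:69343429-69687967, plus strand) are long genes, with 32 of 44 and 18 of 24 windows inside the gene body. Tcf3 (chr10:80409541-80433976, minus strand) had 5 of its 7 windows within 1 kb of the start site and none beyond 12409 bp.

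The most accessible window of Id2, Tcf3, Tcf4 and Tcf12 was the one nearest to the start site, and that of Id3 lay past the end of the gene. Mean accessibility over the 14 libraries, in CPM (counts scaled to a common library total) after TMM scaling, reached 41.6 at Id2, 26.8 at Id3, 40.0 at Tcf3, 30.9 at Tcf4 and 13.6 at Tcf12, where all windows of the table had a median of 1.80 and a maximum of 97.6. Windows within 1 kb of the start numbered 21, with a median of 7.55 CPM, whereas those farther away had a median of 1.52 CPM. Among the 145 windows, 15 (10.3%) were in the top 10% of the table by mean CPM. The window nearest to the start site held 45.1% of the summed counts of Tcf3 but 9.80% of those of Tcf12, with 20.98% for Id2, 20.1% for Id3 and 34.9% for Tcf4. Far from the start, a cluster far upstream of Id2 (highest window at -93501 bp from the start) reached 10.6 CPM and one upstream of Tcf12 (-21330 bp) reached 9.88 CPM.

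**Figure D1:**
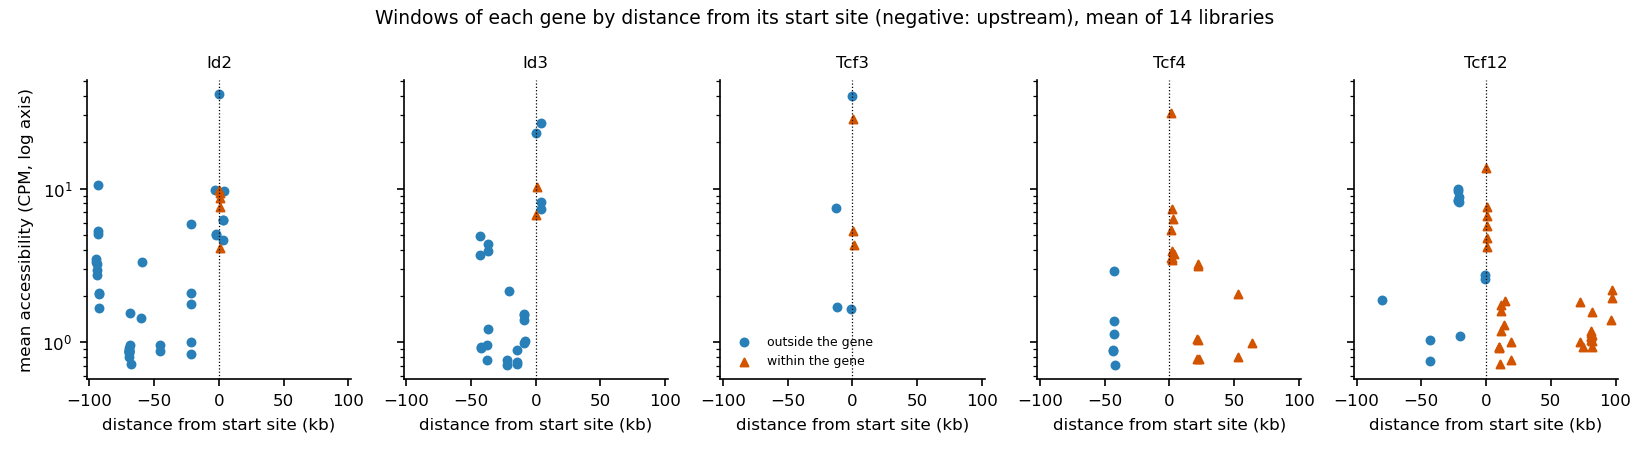
Mean accessibility of each of the 145 windows over the 14 libraries (CPM, log axis) against the distance of its centre from the start site of its gene in kb (negative values lie upstream). Circles are windows outside the gene and triangles windows within it. Id2 and Id3 windows spread upstream, and Tcf4 and Tcf12 windows lie mostly within the gene. Tcf3 windows stay within 12409 bp of the start, a reach that also depends on the start sites of neighbouring genes.

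To compare groups with the least counting error, counts were summed over the windows of each gene in each mouse. These sums differed little between genotypes: over both days the log2 fold changes of R26TIR1(F74G) over R26WT ran from -0.11 (Id3) to 0.037 (Tcf4), and 0 of 5 genes passed the threshold of 0.05 by edgeR's quasi-likelihood test, adjusted by Benjamini-Hochberg, over 15877 genes, of which 3 (0.0189%) were called. On day 7 none of the 5 was called, against 0.0% of 15862 genes, and on day 3 none, against 17 of 15866 (0.107%). At an unadjusted p under 0.05 stood 0 of 5 on day 7 (7.36% of genes), 2 of 5 on day 3 (16.1%) and 2 of 5 over both days (13.2%), and both times these were Id3 and Tcf12. Overlapping windows count a read more than once in these sums. The CPM values of the sums below carry the scaling of the single windows, whereas the test scaled the sums anew. A fold change can therefore differ from the ratio of the CPM means beside it.

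Id2, the Id gene known as a marker of effector and innate-like lymphocyte programs, had the highest sum of the 5. Its summed accessibility was 191.3, 199.0, 212.3 and 205.8 CPM in the R26WT mice and 188.5, 198.8, 178.8 and 191.9 CPM in the R26TIR1(F74G) mice on day 3. The day 7 values were 211.1, 203.5 and 201.2 CPM in R26WT and 190.9, 186.9 and 217.3 CPM in R26TIR1(F74G) mice. The ranges overlapped on both days, and on day 7 replicate 3 of the R26TIR1(F74G) mice was above and the other 2 were below the 3 R26WT mice. The difference did not pass the test on day 3 (log2 fold change -0.036, SE 0.049, adjusted p = 0.756) or on day 7 (log2 fold change -0.047, SE 0.060, adjusted p = 0.868).

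Id3, the second Id gene of T cells, known to be induced by antigen receptor and TGF-beta signals, was lower in R26TIR1(F74G) mice on average on both days. Its sum was 123.8, 118.01, 118.3 and 128.3 CPM in the R26WT mice and 112.2, 112.9, 93.3 and 108.9 CPM in the R26TIR1(F74G) mice on day 3. After 7 days R26WT mice gave 116.996, 125.5 and 125.2 CPM and R26TIR1(F74G) mice 116.4, 114.6 and 115.6 CPM. In CPM, all 7 R26TIR1(F74G) mice were below all 7 R26WT mice (means 110.6 ± 8.01 and 122.3 ± 4.46 CPM, SD, n = 7), with a gap between 116.4 and 116.996 CPM at its narrowest. Among 15877 gene sums, 62 (0.391%) were apart in this way over both days, 1251 (7.88%) on day 3 and 1990 (12.5%) on day 7. On the scaling that the test used, the separation of the mice was not examined. The difference did not pass the threshold over all genes, over both days (log2 fold change -0.11, SE 0.043, adjusted p = 0.295), on day 3 (log2 fold change -0.14, SE 0.063, adjusted p = 0.288) or on day 7 (log2 fold change -0.079, SE 0.064, adjusted p = 0.774). R26TIR1(F74G) day 3 replicate 3, the lowest value, also had the lowest share of counts near start sites (42.4%). R26WT day 7 replicate 3 had nearly the same share (42.4%) and an Id3 sum of 125.2 CPM. The part of that share in the difference was not tested. Mouse names begin with AC or E, and the part of this prefix in the sum was not tested. The mice with E were R26WT day 3 replicate 4 and R26TIR1(F74G) day 3 replicates 3 and 4, at 128.3, 93.3 and 108.9 CPM, and R26TIR1(F74G) day 7 replicate 3.

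Of the E protein genes, Tcf12 differed most on day 3. HEB, its product, is known to work with E2A in thymocytes. Tcf12 sums were 147.0, 154.5, 148.1 and 150.1 CPM in the R26WT mice and 123.9, 139.2, 124.5 and 132.5 CPM in the R26TIR1(F74G) mice on day 3. Day 7 gave 135.7, 143.3 and 135.3 CPM in R26WT and 142.7, 123.6 and 132.0 CPM in R26TIR1(F74G) mice. On day 3 all 4 R26TIR1(F74G) mice were below all 4 R26WT mice, whereas on day 7 the groups overlapped. By the same test, which used its own scaling of the sums, Tcf12 was not called on day 3 (log2 fold change -0.15, SE 0.058, adjusted p = 0.240), on day 7 (log2 fold change -0.053, SE 0.065, adjusted p = 0.861) or over both days (log2 fold change -0.10, SE 0.043, adjusted p = 0.312).

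Tcf3, which encodes E2A, the E protein with the broadest known role in early lymphocytes, had sums of 93.1, 84.0, 87.5 and 96.4 CPM in the R26WT mice and 89.9, 83.4, 68.6 and 83.3 CPM in the R26TIR1(F74G) mice on day 3. On day 7 R26WT mice were at 96.6, 100.2 and 85.2 CPM and R26TIR1(F74G) mice at 91.9, 93.1 and 91.5 CPM. Ranges overlapped on both days, and the lowest value, 68.6 CPM, came from R26TIR1(F74G) day 3 replicate 3, which was also the lowest mouse for Id3. The log2 fold change was -0.10 (SE 0.074) on day 3 and -0.029 (SE 0.065) on day 7, with adjusted p = 0.510 and 0.925. For Tcf4, best known from plasmacytoid dendritic cells, whose lineage E2-2 specifies, the sums were 77.3, 85.9, 88.5 and 95.9 CPM in the R26WT mice and 76.4, 88.8, 99.0 and 97.3 CPM in the R26TIR1(F74G) mice on day 3. The day 7 values were 91.3, 91.7 and 99.7 CPM in R26WT and 87.1, 90.7 and 87.4 CPM in R26TIR1(F74G) mice. On day 7 the 3 R26TIR1(F74G) mice were below the 3 R26WT mice, and on day 3 the groups overlapped with the higher mean in R26TIR1(F74G) mice. Neither day passed the test (on day 3 log2 fold change 0.13, SE 0.087, adjusted p = 0.482, and on day 7 log2 fold change -0.084, SE 0.074, adjusted p = 0.799).

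Set in order, the group means of Id2 were highest in R26WT mice on day 7 (205.3 ± 5.14 CPM, SD, n = 3) and lowest in R26TIR1(F74G) mice on day 3 (189.5 ± 8.32, n = 4), and the ranges of each pair of neighbours in that order overlapped. Id3 followed R26WT day 7 (122.6 ± 4.82), R26WT day 3 (122.1 ± 4.92), R26TIR1(F74G) day 7 (115.5 ± 0.932) and R26TIR1(F74G) day 3 (106.8 ± 9.19), and its first pair of neighbours overlapped while the others did not. For Tcf12, R26WT day 3 (149.9 ± 3.28) stood above R26WT day 7 (138.1 ± 4.52) without overlap, and the groups below it overlapped. Each pair without overlap sets a day 3 group beside a day 7 group, and day and the handling of its samples cannot be told apart. The share of all gene sums that were apart in these pairs was not counted. Tcf3 means ran from 81.3 to 94.0 CPM and Tcf4 means from 86.9 to 94.3 CPM with overlap between all neighbours. Across all 14 libraries the sums varied by 5.53% for Id2 and 8.89% for Tcf3 (coefficient of variation), with Id3 (7.48%), Tcf4 (7.87%) and Tcf12 (7.30%) between them, where genes with a mean sum of at least 1000 had a median of 7.81%. The highest library exceeded the lowest by 1.22-fold for Id2 and by 1.46-fold for Tcf3.

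**Figure D2:**
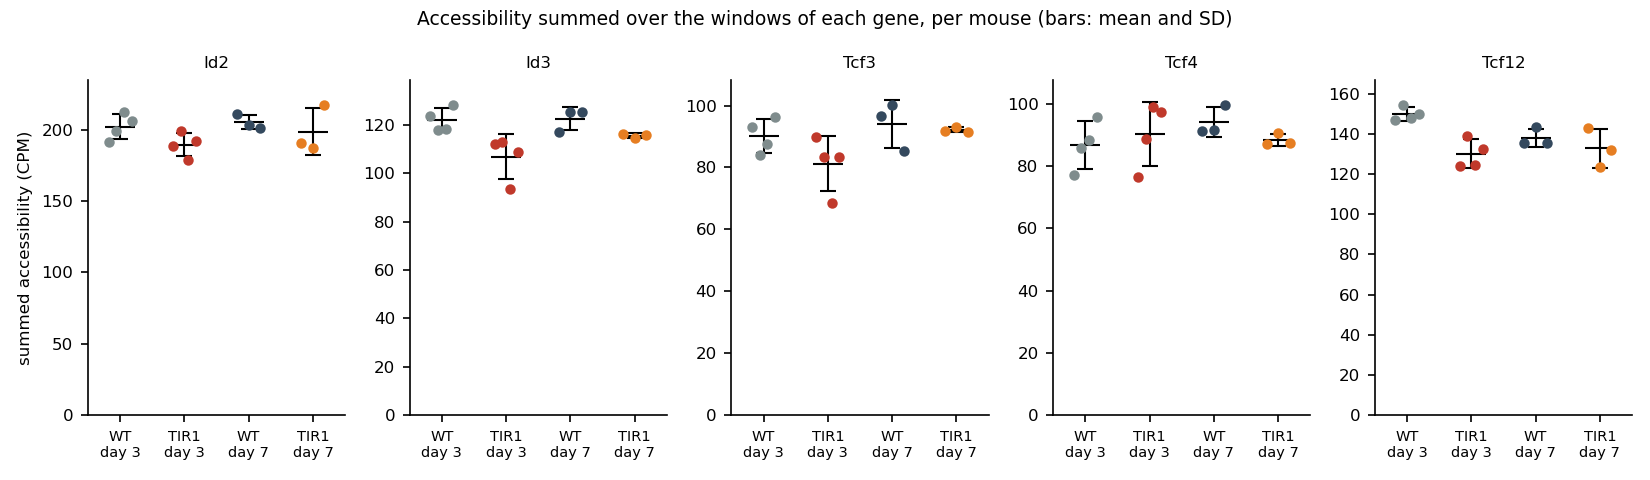
Accessibility summed over the windows of each gene (CPM, axis from 0) in R26WT (WT) and R26TIR1(F74G) (TIR1) mice by day, where each point is 1 mouse and bars give the mean and SD. Id3 points of R26TIR1(F74G) mice (at most 116.4 CPM) lie below those of R26WT mice (at least 116.996 CPM), and the genotypes overlap for Id2 and Tcf3 on both days.

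Single windows gave the same picture: none of the member windows passed the threshold in any comparison by edgeR's quasi-likelihood test, adjusted by Benjamini-Hochberg, over all windows tested. On day 7, 143 of the 145 had a mean count of at least 10 and were tested, and 0 were called, where 11 of 237811 windows (0.00463%) were called in all. Day 3 likewise gave 0 of 143 (0.0% of 235515 windows) and both days together 0 of 145 (0.0112% of 240778). The smallest adjusted p among the members was 0.666 for day 7, 0.464 for day 3 and 0.515 for the days together. With an unadjusted p under 0.05 there were 10 member windows in 9 regions on day 7, or 6.99% (5.95% of all windows), 11 in 10 regions on day 3, or 7.69% (7.55% of all), and 12 in 9 regions over both days, or 8.28% (6.73% of all), so that each share was near that of the whole table. Of these, 4 were higher and 6 lower in R26TIR1(F74G) mice on day 7, 3 higher and 8 lower on day 3, and 2 higher and 10 lower over both days. Among all windows at that p, 6548 were higher and 7601 lower on day 7. The numbers were 9262 and 8518 on day 3, and 7604 and 8592 over both days. Member windows share mice and, where they overlap, reads, and these splits carry no test.

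By gene, the windows split unevenly. On day 7 an unadjusted p under 0.05 was reached by 0 of 44 Id2 windows, 4 of 24 Id3 windows, 1 of 7 of Tcf3, 3 of 24 of Tcf4 and 2 of 44 of Tcf12. The day 3 counts were 2 of 44, 1 of 26, 0 of 7, 3 of 23 and 5 of 43. Groups of mice did not overlap on day 7 for 7 of 26 Id3 windows (3 higher and 4 lower in R26TIR1(F74G) mice), for 1 of Tcf3, 5 of Tcf12 and 0 of Id2 and Tcf4, 13 of 145 (8.97%) together, against 11.8% of all windows. On day 3 they did not overlap for 6 Id2, 1 Tcf3 and 3 Tcf12 windows, each lower in R26TIR1(F74G) mice, 6.90% of the 145 against 4.09% of the table, and over both days for 0 of 145, against 0.116%.

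Most day 3 fold changes of the members were below 0. Of 143 tested, 98 were lower and 45 higher in R26TIR1(F74G) mice, with a median log2 fold change of -0.11 beside 0.0078 over all windows. Tcf12 windows had a median of -0.21 (35 of 43 lower), Id3 windows -0.14 (21 of 26 lower), Tcf3 windows -0.11 (4 of 7) and Id2 windows -0.096 (30 of 44), whereas 15 of 23 Tcf4 windows were higher with a median of 0.18. By day 7 the split was 72 lower and 71 higher with a median of -0.00091, and Id3 windows had the highest gene median, 0.097, with 16 of 24 higher. Windows of a gene share mice and, where they overlap, reads, and these medians carry no test.

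**Figure D3:**
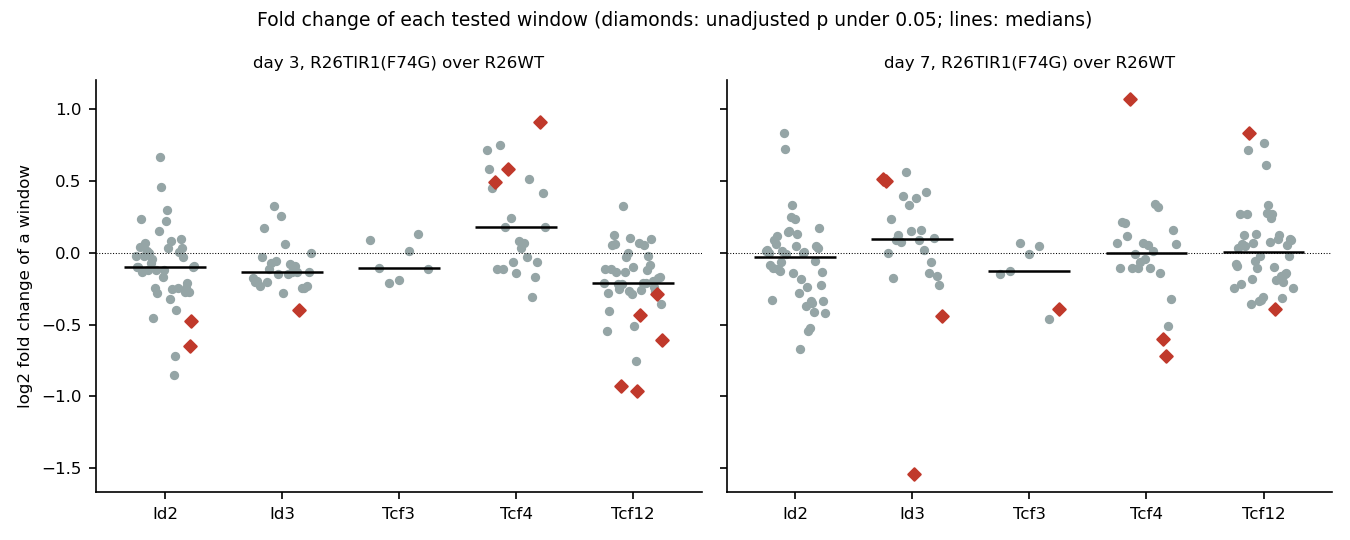
Log2 fold change of R26TIR1(F74G) over R26WT for each tested window of the 5 genes on day 3 (143 windows) and day 7 (143 windows), with a line at the median of each gene and red diamonds for an unadjusted p under 0.05. Day 3 points of Tcf12 sit mostly below 0 and those of Tcf4 mostly above, and on day 7 the medians of all 5 genes lie between -0.13 and 0.097.

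The windows nearest to the start sites differed between genotypes by less than the test could call. At Id2 (chr12:25096060-25096261, centre 68 bp upstream, mean count 606.4), the promoter window shown in part in capitals above, accessibility was 39.2, 39.6, 44.7 and 49.8 CPM in the R26WT mice and 40.5, 44.5, 35.6 and 39.1 CPM in the R26TIR1(F74G) mice on day 3. After 7 days R26WT mice gave 45.4, 42.7 and 41.1 CPM and R26TIR1(F74G) mice 36.0, 39.5 and 44.3 CPM. Genotypes overlapped on both days. Its log2 fold change over both days was -0.12 (SE 0.082, adjusted p = 0.855).

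At Id3 the window over the start (chr4:136143675-136143876, centre 47 bp upstream, mean count 338.7) had the smallest p over both days of all 145 windows. It held 21.4, 22.2, 24.4 and 29.8 CPM in the R26WT mice and 17.98, 19.2, 15.5 and 21.6 CPM in the R26TIR1(F74G) mice on day 3. Day 7 gave 25.1, 26.4 and 28.5 CPM in R26WT and 25.2, 21.3 and 25.3 CPM in R26TIR1(F74G) mice. On day 3 the highest R26TIR1(F74G) mouse (21.6 CPM) just passed the lowest R26WT mouse (21.4 CPM) and the means were 18.6 ± 2.55 and 24.4 ± 3.80 CPM (SD, n = 4). The difference did not pass the test over all windows on day 3 (log2 fold change -0.40, SE 0.13, adjusted p = 0.498), on day 7 (log2 fold change -0.14, SE 0.12, adjusted p = 0.918) or over both days (log2 fold change -0.28, SE 0.093, adjusted p = 0.515). With the prefix of the mouse name as a term, the fold change of this window over both days was -0.33 (SE 0.099, adjusted p = 0.490).

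The Tcf3 window at the start (chr10:80433944-80434145, centre 68 bp upstream, mean count 584.5) was at 43.6, 36.1, 40.8 and 45.7 CPM in the R26WT mice and 41.7, 37.2, 30.3 and 37.4 CPM in the R26TIR1(F74G) mice on day 3. On day 7 R26WT mice were at 43.2, 44.8 and 35.4 CPM and R26TIR1(F74G) mice at 41.0, 39.3 and 43.7 CPM. Its values overlapped between genotypes on both days, and R26TIR1(F74G) day 3 replicate 3 was again the lowest. Over both days the log2 fold change was -0.11 (SE 0.085, adjusted p = 0.876).

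For Tcf4 the nearest window lay inside the gene (chr18:69344289-69344490, 960 bp from the start, mean count 455.3) and was also its most accessible. It was at 28.6, 31.3, 33.5 and 37.1 CPM in the R26WT mice and 23.6, 34.3, 30.1 and 31.3 CPM in the R26TIR1(F74G) mice on day 3. The day 7 values were 33.5, 32.9 and 27.7 CPM in R26WT and 28.4, 31.7 and 28.2 CPM in R26TIR1(F74G) mice, and the genotypes overlapped on both days (over both days log2 fold change -0.11, SE 0.087, adjusted p = 0.878). Tcf12 had the least accessible of the 5 (chr9:72111753-72111954, 40 bp inside the gene, mean count 197.1), at 14.6, 14.02, 13.04 and 14.7 CPM in the R26WT mice and 11.5, 13.7, 13.6 and 12.6 CPM in the R26TIR1(F74G) mice on day 3. After 7 days R26WT mice gave 15.6, 13.5 and 14.8 CPM and R26TIR1(F74G) mice 12.9, 12.3 and 13.1 CPM. Its 3 R26TIR1(F74G) mice on day 7 were below the 3 R26WT mice and its day 3 groups overlapped, and it was not called on either day or over both (log2 fold change -0.15, SE 0.093, adjusted p = 0.817). Counting all 5 start windows, the fold change over both days was below 0 for each, from -0.28 at Id3 to -0.11 at Tcf3 and -0.11 at Tcf4. None of the 5 was called, and the directions of start windows of other genes were not counted.

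**Figure D4:**
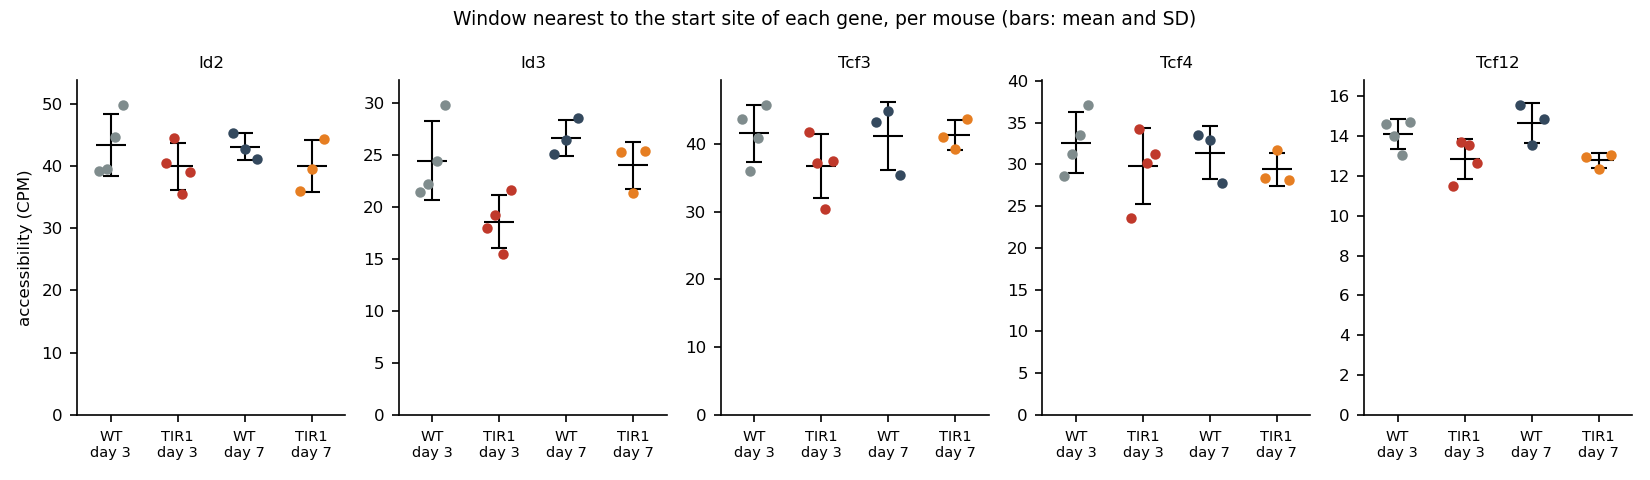
Accessibility of the window nearest to the start site of each gene (CPM, axis from 0) in R26WT (WT) and R26TIR1(F74G) (TIR1) mice by day, where each point is 1 mouse and bars give the mean and SD. Genotypes overlap in each panel on day 3, and for Tcf12 on day 7 the 3 R26TIR1(F74G) mice (at most 13.1 CPM) sit below the 3 R26WT mice (at least 13.5 CPM).

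Away from the start, the window with the smallest p over both days was taken for each gene, with the most accessible window where that was another one. At Id2 the former lay in the far upstream cluster (chr12:25190278-25190479, -94286 bp from the start, mean count 39.4). It was at 3.38, 3.51, 2.94 and 2.95 CPM in the R26WT mice and 1.62, 1.93, 2.24 and 2.17 CPM in the R26TIR1(F74G) mice on day 3. Day 7 gave 2.78, 2.67 and 4.35 CPM in R26WT and 2.25, 2.44 and 3.19 CPM in R26TIR1(F74G) mice. On day 3 the 4 R26TIR1(F74G) mice were below the 4 R26WT mice, and on day 7 they overlapped with replicate 3 of the R26WT mice, a library of low depth, as the highest. The fold change did not pass the test (day 3 log2 fold change -0.65, SE 0.22, adjusted p = 0.522, both days log2 fold change -0.45, SE 0.16, adjusted p = 0.575).

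The most accessible Id3 window lay past the 3' end of the gene (chr4:136147820-136148021, 4098 bp from the start, mean count 385.8) and exceeded the window at its start. It was at 27.6, 25.5, 26.5 and 31.9 CPM in the R26WT mice and 31.7, 25.6, 19.1 and 26.6 CPM in the R26TIR1(F74G) mice on day 3. On day 7 R26WT mice were at 28.9, 31.1 and 26.5 CPM and R26TIR1(F74G) mice at 21.9, 26.05 and 26.4 CPM. On day 7 the highest R26TIR1(F74G) mouse, at 26.4 CPM, was just below the lowest R26WT mouse, at 26.5 CPM (day 7 log2 fold change -0.23, SE 0.12, adjusted p = 0.858), and on day 3 the groups overlapped.

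Tcf3's farthest window (chr10:80446285-80446486, 12409 bp upstream, mean count 104.9) was at 6.23, 6.02, 6.49 and 9.27 CPM in the R26WT mice and 10.4, 6.44, 4.32 and 6.35 CPM in the R26TIR1(F74G) mice on day 3. The day 7 values were 8.33, 8.84 and 10.9 CPM in R26WT and 6.36, 7.03 and 7.49 CPM in R26TIR1(F74G) mice. The day 7 groups did not overlap, with R26TIR1(F74G) mice lower (day 7 log2 fold change -0.39, SE 0.16, adjusted p = 0.782), whereas on day 3 the R26TIR1(F74G) mice spanned from below to above the R26WT mice. The highest value of each day, 10.4 CPM on day 3 and 10.9 CPM on day 7, came from a library of low depth. The part of depth was not tested. In Tcf12 the window 490 bp inside the gene (chr9:72111303-72111504, mean count 95.6) was at 8.74, 6.88, 6.49 and 6.85 CPM in the R26WT mice and 5.22, 5.63, 6.26 and 7.48 CPM in the R26TIR1(F74G) mice on day 3. After 7 days R26WT mice gave 7.95, 7.38 and 6.90 CPM and R26TIR1(F74G) mice 5.78, 5.25 and 6.07 CPM. It was lower in all 3 R26TIR1(F74G) mice on day 7 and overlapped on day 3 (both days log2 fold change -0.29, SE 0.12, adjusted p = 0.637). This Tcf12 window lies between the start of the gene and another RefSeq start site, 692 bp inside it. The Tcf4 window was sparse (chr18:69301211-69301412, -42118 bp from the start, mean count 10.2), at 0.519, 0.728, 0.546 and 0.472 CPM in the R26WT mice and 0.899, 1.18, 0.969 and 0.724 CPM in the R26TIR1(F74G) mice on day 3. Day 7 gave 0.194, 0.407 and 0.750 CPM in R26WT and 0.428, 1.01 and 1.06 CPM in R26TIR1(F74G) mice, with overlap on both days (both days log2 fold change 0.88, SE 0.33, adjusted p = 0.605).

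Id3 had the largest spread of fold changes on day 7, from -1.54 to 0.56, and 3 of its sites are described here because of their day 7 values, so that these are descriptions chosen after the values were seen. The site farthest upstream (chr4:136100480-136100681, 43242 bp, mean count 72.0) was at 6.93, 5.29, 5.67 and 5.13 CPM in the R26WT mice and 4.86, 5.53, 4.77 and 4.91 CPM in the R26TIR1(F74G) mice on day 3. On day 7 R26WT mice were at 3.68, 3.90 and 2.70 CPM and R26TIR1(F74G) mice at 5.78, 4.65 and 4.81 CPM. R26TIR1(F74G) mice were higher than each R26WT mouse on day 7, and the R26WT values of day 7 were below those of day 3. Its neighbour at -42895 bp (2.62 ± 0.512 against 3.69 ± 0.383 CPM on day 7, SD, n = 3) had the same order. The fold changes on day 7 were 0.51 (SE 0.19) and 0.50 (SE 0.22), and the interaction of genotype and day had adjusted p = 0.726 and 0.755.

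A weak site upstream of Id3 (-14055 bp from its start, chr4:136129667-136129868) had the lowest day 7 fold change of the 143 windows, from a mean count of 11.2 reads per library. Its values were 1.21, 0.860, 0.615 and 0.885 CPM in the R26WT mice and 1.80, 0.483, 0.894 and 0.965 CPM in the R26TIR1(F74G) mice on day 3. The day 7 values were 1.03, 0.814 and 1.80 CPM in R26WT and 0.267, 0.477 and 0.405 CPM in R26TIR1(F74G) mice. All 3 R26TIR1(F74G) mice were below the 3 R26WT mice on day 7, and the day 3 groups overlapped (day 7 log2 fold change -1.54, SE 0.48, adjusted p = 0.666). Past the gene, the window 4408 bp from the start (chr4:136148130-136148331, mean count 113.9), beside the most accessible Id3 window, was at 7.10, 7.01, 8.67 and 6.61 CPM in the R26WT mice and 10.6, 7.67, 6.04 and 6.19 CPM in the R26TIR1(F74G) mice on day 3. After 7 days R26WT mice gave 9.76, 9.13 and 12.6 CPM and R26TIR1(F74G) mice 7.17, 7.63 and 7.74 CPM. It was also lower in each R26TIR1(F74G) mouse on day 7 and overlapped on day 3 (day 7 log2 fold change -0.44, SE 0.15, adjusted p = 0.718). In both of these windows the highest value of each day came from a library of low depth. These were R26TIR1(F74G) day 3 replicate 1 and R26WT day 7 replicate 3, and the part of depth was not tested.

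**Figure D5:**
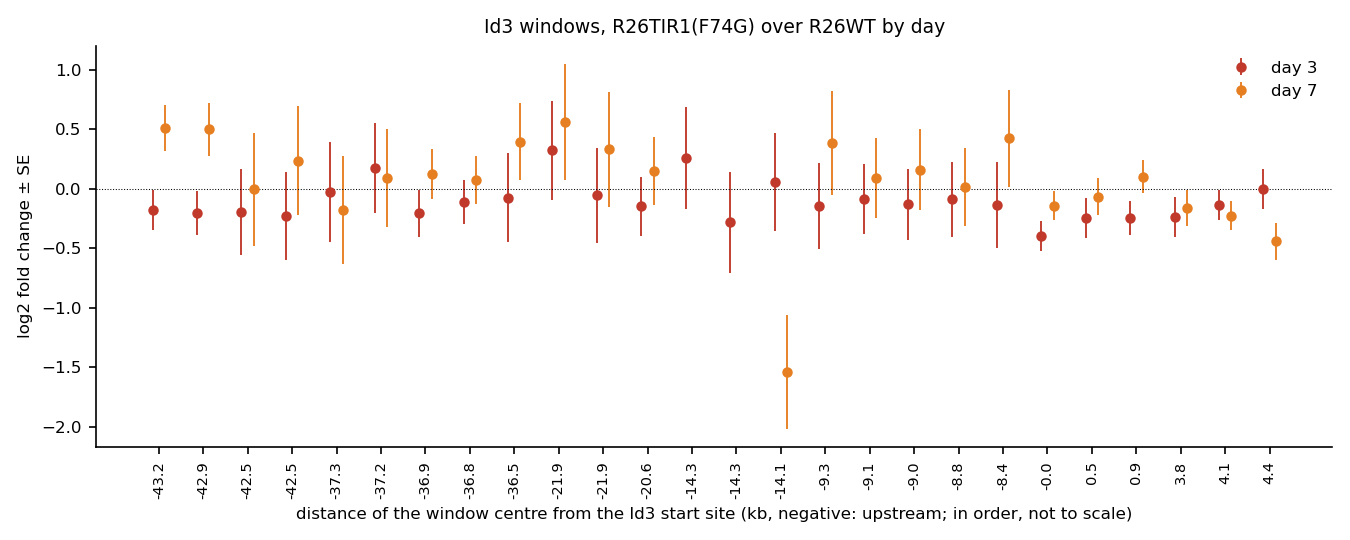
Log2 fold change of R26TIR1(F74G) over R26WT with its SE for the 26 Id3 windows on day 3 and the 24 tested on day 7, in order of the distance of the window centre from the Id3 start site in kb (not to scale). The farthest upstream pair is above 0 on day 7 (0.51 and 0.50) and below 0 on day 3 (-0.18 and -0.20), and the window at -14055 bp stands at -1.54 on day 7.

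Tcf4 held the member window with the smallest p on day 3 and the smallest interaction p, also chosen here after its values were seen. It lies inside the gene, 53008 bp from the start (chr18:69396337-69396538, mean count 29.0), and was at 1.04, 1.52, 1.43 and 1.48 CPM in the R26WT mice and 2.34, 1.45, 3.13 and 3.62 CPM in the R26TIR1(F74G) mice on day 3. Day 7 gave 2.58, 2.15 and 2.40 CPM in R26WT and 1.93, 1.43 and 2.28 CPM in R26TIR1(F74G) mice. On day 3 the R26TIR1(F74G) mice were higher except replicate 2, which lay within the R26WT range, and on day 7 the groups overlapped with the lower mean in R26TIR1(F74G) mice. The fold change was 0.91 (SE 0.27, adjusted p = 0.464) on day 3 and -0.32 (SE 0.26, adjusted p = 0.914) on day 7, and the interaction did not pass either (adjusted p = 0.658). R26WT mice themselves went from 1.37 ± 0.222 CPM on day 3 (SD, n = 4) to 2.38 ± 0.217 on day 7 (SD, n = 3). A second Tcf4 window, 22104 bp inside the gene, had a day 7 fold change of -0.72 and overlapping groups. Replicate 3 of the R26WT mice, a library of low depth, was the highest, at 7.05 CPM beside 2.39 and 2.97 in the other 2.

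Whether the genotypes differed more on one day than on the other was tested as an interaction, and 0 of 145 member windows passed, against 0.0% of 240778. At an unadjusted p under 0.05 there were 11 (7.59%, with 6.32% of all windows), of which 4 were Id3 windows, 3 Tcf12, 2 Id2 and 2 Tcf4. Between day 7 and day 3, with genotype as a term, 0 of 145 passed where 8 (0.00332%) did in all, and 12 had an unadjusted p under 0.05 (8.28%, with 5.47% of all windows). They were 7 of 26 Id3 windows (3 higher and 4 lower on day 7), 3 of 44 Id2 windows and 2 of 24 Tcf4 windows, all 5 higher on day 7, and none of Tcf3 and Tcf12. Day and the handling of the samples of a day cannot be told apart. The fold changes of day 7 over day 3 stayed between -0.63 and 0.39 for the 145 windows.

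The rule leaves out windows beyond 100 kb from the start of the 2 long genes. Inside Tcf4, 64 more windows lay there, up to 10.6 CPM for the highest, at chr18:69593212-69593413, 249883 bp from the start. Tcf12 had 13, with 2.53 CPM for the highest, at chr9:71895989-71896190, whose centre is 7 bp from another RefSeq start site of Tcf12, 215797 bp inside the gene. The window nearest to the outer start had 13.6 CPM. None of the 64 and none of the 13 was called in the 3 comparisons of genotypes, and their smallest adjusted p was 0.540.

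For the other genes of the pathway, 0 gene sums were called in any of the 3 comparisons of genotypes, and among their single windows 0 of 206 of the partners, 0 of 277 of the targets and 0 of 357 of the upstream factors were called. Unadjusted p under 0.05 was reached by 1, 3 and 0 of 7 partner sums on day 7, day 3 and over both days, by 0, 5 and 4 of 9 target sums and by 2, 5 and 2 of 10 upstream sums, where the shares of all genes were 7.36%, 16.1% and 13.2%. Of single windows it was reached over both days by 4.37% of those of the partners, 12.6% of those of the targets and 14.006% of those of the upstream factors, beside 6.73% of all windows. On day 3 the shares were 6.40%, 10.6% and 9.30%, beside 7.55%, and on day 7 they were 4.90%, 6.14% and 9.24%, beside 5.95%. Windows of a gene share mice and reads, and these shares carry no test. The genes given with values were chosen after these were seen. Of 9 other Id genes and basic helix-loop-helix partners 7 had windows, which excluded Id4 and Msc, and their median log2 fold change over both days was 0.0086, from -0.095 for Bhlhe41 to 0.083 for Id1. Among 10 genes known as E protein targets in lymphocytes, 9 were tested (Ptcra was not), with a median of -0.027, and they spanned from -0.19 (SE 0.066, adjusted p = 0.246) for Cdkn1a, a cell cycle inhibitor, to 0.13 for Rag2. Cxcr5, the receptor that guides cells to B cell follicles, was at -0.15 (SE 0.057, adjusted p = 0.274), and Il7r, the interleukin 7 receptor, at 0.11 (SE 0.042, adjusted p = 0.304). All 10 factors known upstream of Id genes were tested, with a median of 0.032 and the highest value, 0.20 (SE 0.10, adjusted p = 0.406), at the BMP receptor gene Bmpr1a. Smad3, which carries TGF-beta signals, had -0.18 (SE 0.047, adjusted p = 0.145) and Smad1, which carries BMP signals, 0.17 (SE 0.047, adjusted p = 0.176). Egr1, Egr2 and Egr3, which link the antigen receptor to Id3, were at -0.044, 0.049 and -0.087. Over all genes the median was 0.0032.

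Across the 14 libraries, log2 sums of Id3 and Tcf3 had a Pearson r of 0.81, of Id3 and Tcf12 0.63, of Id2 and Id3 0.58, and of Tcf3 and Tcf4 -0.33, with the other pairs between -0.18 and 0.51. The libraries share groups and sequencing depth, and these values are descriptions over 14 points. With the log2 total count r was 0.35 for Id2, 0.062 for Id3, 0.23 for Tcf3, 0.17 for Tcf4 and 0.36 for Tcf12, and with the share of counts near start sites it was 0.635 for Id2, 0.492 for Id3, 0.648 for Tcf3, -0.214 for Tcf4 and 0.547 for Tcf12. Among 13686 other genes with a mean sum of at least 100, those whose pattern over the libraries was most like a member's were Get1, Ints10 and Srrd for Id2 (r of 0.92, 0.91 and 0.89), Rab8b, Ndufv1 and Prrc2a for Id3 (0.95, 0.95 and 0.95), Tmem134, Zfp566 and Brip1 for Tcf3 (0.94, 0.94 and 0.93), Wdr70, Slc35d3 and Shisal2b for Tcf4 (0.90, 0.87 and 0.86) and Uqcc1, Dok4 and S1pr2 for Tcf12 (0.94, 0.88 and 0.88).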

How the data were processed

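ATAC-seq libraries of Treg cells from 14 mice were compared. The authors aligned reads with Bowtie2 to mm10 (GRCm38), called peaks with MACS2, merged reproducible peaks into 1 atlas and counted reads around summits with featureCounts. Per the study's methods, MACS2 was run without its model and with reads shifted and extended. Whether reads were shifted again for counting, the version of Bowtie2 and any duplicate removal are not given in the sources used here. The deposited values are raw counts per window, and 0 columns were left out. Replicate numbers name mice, and p-values measure the spread between them. The build was checked by position. Of 32619 RefSeq start sites of GRCm38, 42.8% had a window centre within 500 bp. Of 21603 protein-coding gene start sites of GENCODE in GRCm39, a different set of starts, 8.42% had one.

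Each window was assigned to the protein-coding gene (RefSeq) with the nearest start site within 100 kb, and counts were also summed per gene. Of 21631 such genes, the 21187 with a known strand were used. Further start sites of a gene were not used. All windows or sums with a mean count of at least 10 were fitted with edgeR (4.0.16, R 4.3.3), with TMM scaling and the quasi-likelihood test, and p-values were adjusted by Benjamini-Hochberg over all of them with a threshold of 0.05. Fits were made for day 7 (6 libraries), day 3 (8 libraries), both days with day as a term, the interaction of genotype and day, and day 7 against day 3 with genotype as a term. CPM values, also those of sums, are scaled by TMM factors of the single windows over all 14 libraries, whereas each fit computed its own factors. Totals of 5653289 to 20184487 counts set the counting error, and 10 counts was the smallest mean tested. Named were, for each gene, the window nearest to the start site, the one with the highest mean CPM and the one with the smallest p over both days. Alternatives were DESeq2 (1.42.0), other scaling, filters and distances, a replicate block, the mouse name prefix and leaving out each mouse. The members, gene lists and tests were chosen with earlier results of these data known. The result of 1 list of cell type markers is not reported here.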

Additional observations from a re-analysis of the deposited data

Results flagged for a closer look

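In the Tcf3 window 12409 bp upstream of the start site (chr10:80446285-80446486), replicate 4 of the R26WT mice on day 3 was at 9.27 CPM, far from the other 3 mice of its group, which lay between 6.02 and 6.49 CPM. It was the 1 value that stood apart among 30 groups of 4 mice examined, where chance alone sets apart about 1 in 20. The day 3 fold change of this window, -0.11 on the log2 scale, was 0.061 without that mouse.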

How the results depend on the processing

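The count of member windows and of member gene sums past the threshold was 0 in each comparison and remained 0 under each alternative run, including DESeq2 and adjusted p under 0.1, and it was 0 without each mouse in turn. DESeq2 gave an adjusted p to 26 of 145 member windows over both days (lowest 0.143) and 84 of 145 for day 7 against day 3, so that the others could not be called by it. It gave one to each of the 143 windows tested on day 7 and on day 3, to 145 for the interaction and to the 5 sums. Directions of the named windows turned in 0 of 205 values over both days, 2 of 156 on day 3 and 5 of 126 on day 7, and those of the 5 sums in 1 of 105, 1 of 75 and 1 of 65. These were changes near 0. The Tcf3 start window on day 7 (-0.0059) was 0.0042 with the replicate block and -0.090 to 0.060 without 1 mouse, above 0 without replicate 1 or 2 of either genotype (0.028 and 0.060 for R26WT, 0.0011 and 0.030 for R26TIR1(F74G)). The Tcf3 window 12409 bp upstream on day 3 (-0.11) ran from -0.30 to 0.061 without 1 mouse, with 0.056 without R26TIR1(F74G) replicate 3 and 0.061 without R26WT replicate 4. The Id2 sum on day 3 (-0.036) was 0.023 with windows within 20 kb, the Tcf3 sum on day 7 (-0.029) ran from -0.060 to 0.0052, the latter without R26WT replicate 2, and the Tcf4 sum over both days (0.037) from -0.0094, without R26TIR1(F74G) day 3 replicate 3, to 0.075. The cause was not tested. With the replicate block, 0 members were called. Replicate numbers did not pair the mice: correlations of deviations ran from -0.079 to 0.065, and 1 of 7 numbers correlated best with its own. Over all windows, calls on day 7 were 11, against 0 by DESeq2, 34 at a mean count of at least 50 and 52 with the block, and over both days 27, against 155, 83 and 14. Sums called were 17 on day 3, against 188 by DESeq2 and 39 with the block, 3 over both days, against 196 by DESeq2, and 0 on day 7, against 14. Leaving out 1 mouse moved these counts too. On day 7, 0 windows were called when R26TIR1(F74G) replicate 3 was left out and 27 when R26WT replicate 1 was. Windows called ran from 0 to 30 (without R26TIR1(F74G) replicate 1) on day 3 and from 2 (without R26WT day 7 replicate 2) to 56 (without R26TIR1(F74G) day 3 replicate 1) over both days. For sums they ran from 0 to 3 on day 7, from 0 to 81 (without R26TIR1(F74G) replicate 1) on day 3 and from 0 to 8 over both days, for the interaction from 0 to 19 windows and for day 7 against day 3 from 4 to 17. The sparsest named window had a mean of 10.2 counts.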
